A study of Mus musculus with 4 samples.

Results

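Binding of SMAD4, the partner that receptor-activated SMAD proteins share when they carry TGFβ signals into the nucleus, was examined at 8 mouse genes of myeloid growth and activation signalling. They were Csf1r, Csf1, Csf3r, Flt3, Kit, Flt1, Ifngr1 and Ifngr2, 8 of 26089 genes with curated RefSeq transcripts, taken as a list of names by their function, with earlier results of these data known. A peak was assigned to a gene when its summit, the position with most stacked fragments, lay in the gene body or within 50 kb of a transcription start site (TSS) of the gene. This gave 20 of 16369 SMAD4 peaks in replicate 1 and 27 of 19015 in replicate 2. The cells were alveolar macrophages (AMs), which live in the air spaces of the lung, and were sorted from bronchoalveolar lavage of 9-wk-old wild-type C57BL/6J mice. SMAD4 binding was profiled by HT-ChIPmentation, in which the transposase Tn5 adds sequencing adapters to chromatin while it is still held by the antibody beads. The study asked where factors that respond to niche signals such as TGFβ bind in AMs, and the labels describe 2 SMAD4 libraries and 2 input libraries made without the antibody. There was 1 condition, with no SMAD4-deficient cells and no cells without TGFβ, and the sources used here do not state whether the libraries came from separate animals, so the values below describe these libraries and carry no test.

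M-CSF, the product of Csf1, acts through the receptor tyrosine kinase encoded by Csf1r and supports the survival of most tissue macrophages, whereas AMs depend mainly on GM-CSF. Flt3 and Kit encode receptor tyrosine kinases of the same structural class that act chiefly in hematopoietic progenitors, and Flt1 encodes VEGF receptor 1, which is found on endothelium and on monocytes and macrophages. Csf3r encodes the receptor of G-CSF, the growth factor of neutrophils. Ifngr1 and Ifngr2 encode the ligand-binding chain and the signalling chain of the interferon-γ receptor, which activates macrophages through JAK kinases. TGFβ brings SMAD complexes to short DNA elements, usually beside sites of the factors that define the cell type, such as PU.1 and the C/EBP proteins in myeloid cells.

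Sequence strings were compared in 17 windows at shared regions, where peaks of both replicates overlapped, and 7 of these windows are shown. They are the strongest shared region of Csf1, Csf3r, Flt3, Flt1, Ifngr1 and Ifngr2 and the only shared region at a promoter of these genes. The windows not shown include the 3 that held no string, at Csf1r, Flt1 and Ifngr2. Each is 201 bases of the plus strand of GRCm38.p6 (the assembly called mm10), centred on the mean of the summits of both replicates. Capitals mark matches, on either strand, to 11 consensus strings: CEBP TTGCNNAA, PU.1 GAGGAAGT, ELF5-type ETS CAGGAAGT, AP-1 TGANTCA, RUNX TGTGGTT, STAT TTCNNNGAA, E-box CACGTG, the nuclear receptor (NR) element AGGTCA, SMAD GTCTGG, the SMAD palindrome GTCTAGAC and the GC-rich SMAD string GGCGCC.
Csf1 upstream region, chr3:107783295-107783495: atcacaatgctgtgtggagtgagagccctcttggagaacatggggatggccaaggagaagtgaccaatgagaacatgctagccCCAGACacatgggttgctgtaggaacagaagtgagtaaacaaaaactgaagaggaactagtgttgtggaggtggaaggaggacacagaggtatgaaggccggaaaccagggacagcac
Csf3r upstream region, chr4:126017709-126017909: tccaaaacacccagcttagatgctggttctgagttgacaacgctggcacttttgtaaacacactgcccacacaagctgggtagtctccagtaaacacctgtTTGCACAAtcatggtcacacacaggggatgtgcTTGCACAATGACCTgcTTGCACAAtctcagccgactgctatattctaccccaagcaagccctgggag
Flt3 intron 1 region, chr5:147389079-147389279: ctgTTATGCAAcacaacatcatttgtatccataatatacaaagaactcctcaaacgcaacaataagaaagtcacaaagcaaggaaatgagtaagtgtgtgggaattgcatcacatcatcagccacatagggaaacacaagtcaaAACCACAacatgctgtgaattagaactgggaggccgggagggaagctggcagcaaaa
Flt1 upstream region, chr5:147748095-147748295: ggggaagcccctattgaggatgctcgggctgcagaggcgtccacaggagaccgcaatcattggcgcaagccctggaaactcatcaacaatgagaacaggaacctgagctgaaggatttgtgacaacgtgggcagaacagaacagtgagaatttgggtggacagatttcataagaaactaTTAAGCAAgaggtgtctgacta
Ifngr1 upstream region, chr10:19559806-19560006: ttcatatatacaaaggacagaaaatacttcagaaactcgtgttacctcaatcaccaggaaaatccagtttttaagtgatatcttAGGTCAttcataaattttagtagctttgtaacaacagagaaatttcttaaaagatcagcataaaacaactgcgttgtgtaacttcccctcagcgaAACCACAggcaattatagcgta
Ifngr2 upstream region, chr16:91522581-91522781: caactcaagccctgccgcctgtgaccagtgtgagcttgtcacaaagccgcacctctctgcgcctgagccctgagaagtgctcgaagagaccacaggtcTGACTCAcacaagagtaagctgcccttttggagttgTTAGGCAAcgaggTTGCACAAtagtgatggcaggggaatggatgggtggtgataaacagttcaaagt
Ifngr2 promoter region, chr16:91546563-91546763: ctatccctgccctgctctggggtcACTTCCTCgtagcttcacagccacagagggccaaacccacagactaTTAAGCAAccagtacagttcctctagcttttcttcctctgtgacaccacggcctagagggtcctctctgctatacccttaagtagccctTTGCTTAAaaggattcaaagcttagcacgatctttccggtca
The Csf3r sequence held the CEBP string 3 times in 1 orientation and with the same letters, TTGCACAA, starting 1, 34 and 50 bases to the right of the mean summit, and the second match ran into an NR element read on the minus strand. The Ifngr2 upstream sequence held an AP-1 match that began 2 bases before the mean summit and CEBP matches 34 and 47 bases after it. In the Ifngr2 promoter sequence there were a pair of CEBP matches in opposite orientation and the only PU.1 match in the 17 windows of this length. The Csf1 sequence held a single SMAD string, and the Ifngr1 sequence an NR element and a RUNX match. A match is a run of letters and not a measured site of the factor it is named after.

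In the peak lists, fold enrichment is the number of fragments stacked at the summit plus 1 over the control level plus 1, and q is the false discovery rate of the peak caller. The most frequent control level was 2.08 fragments in replicate 1 and 1.22 in replicate 2, and 19 of the 20 and 23 of the 27 peaks at the 8 genes were at it. The same number of stacked fragments therefore gave a higher fold in replicate 2. The median peak of the whole list had 17 fragments at its summit in replicate 1 and 14 in replicate 2. The lists hold called peaks only, and the smallest summit of any peak was 9 fragments in replicate 1 and 7 in replicate 2, so weaker binding could not be detected. As a check of the cell type label, the 11 AM markers Siglecf, Pparg, Car4, Fabp4, Chil3, Marco, Mrc1, Itgax, Bhlhe41, Lpl and Krt79 were counted by the same rule, and 11 of them had a SMAD4 region found in both replicates. Such a region was present at 1 of 4 neutrophil markers (S100a8), 1 of 3 T cell, 1 of 3 B cell, 1 of 5 lung epithelium and 1 of 3 endothelium markers. Over all protein-coding genes the share was 39.1%, so that counts this small say little about the other cell types. Binding near a marker is not expression of it, and the part of other cells in the peaks was not tested.

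Of the peaks at the 8 genes, 17 of 20 in replicate 1 (85.0%) overlapped a peak of replicate 2 by at least 1 bp, and 17 of 27 in replicate 2 (63.0%) overlapped a peak of replicate 1. The share over all peaks was 69.4% in replicate 1 and 59.2% in replicate 2. The overlapping peaks merged into 17 shared regions, which lay at 7 of the 8 genes. Of 20923 protein-coding genes, 39.1% had a shared region by the same rule, a share that depends on gene length, since the window covers the whole gene body. Flt1 had 5 shared regions, as many as or more than 5 being found at 3.33% of protein-coding genes. Csf3r and Ifngr2 had 4 each, a number reached by 5.83% of protein-coding genes. Csf1r, Csf1, Flt3 and Ifngr1 had 1 each, and Kit had none. Together the windows of the 8 genes spanned 965.9 kb and held 17.6 shared regions per Mb, beside 6.61 per Mb summed over the windows of all protein-coding genes.

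**Figure D1:**
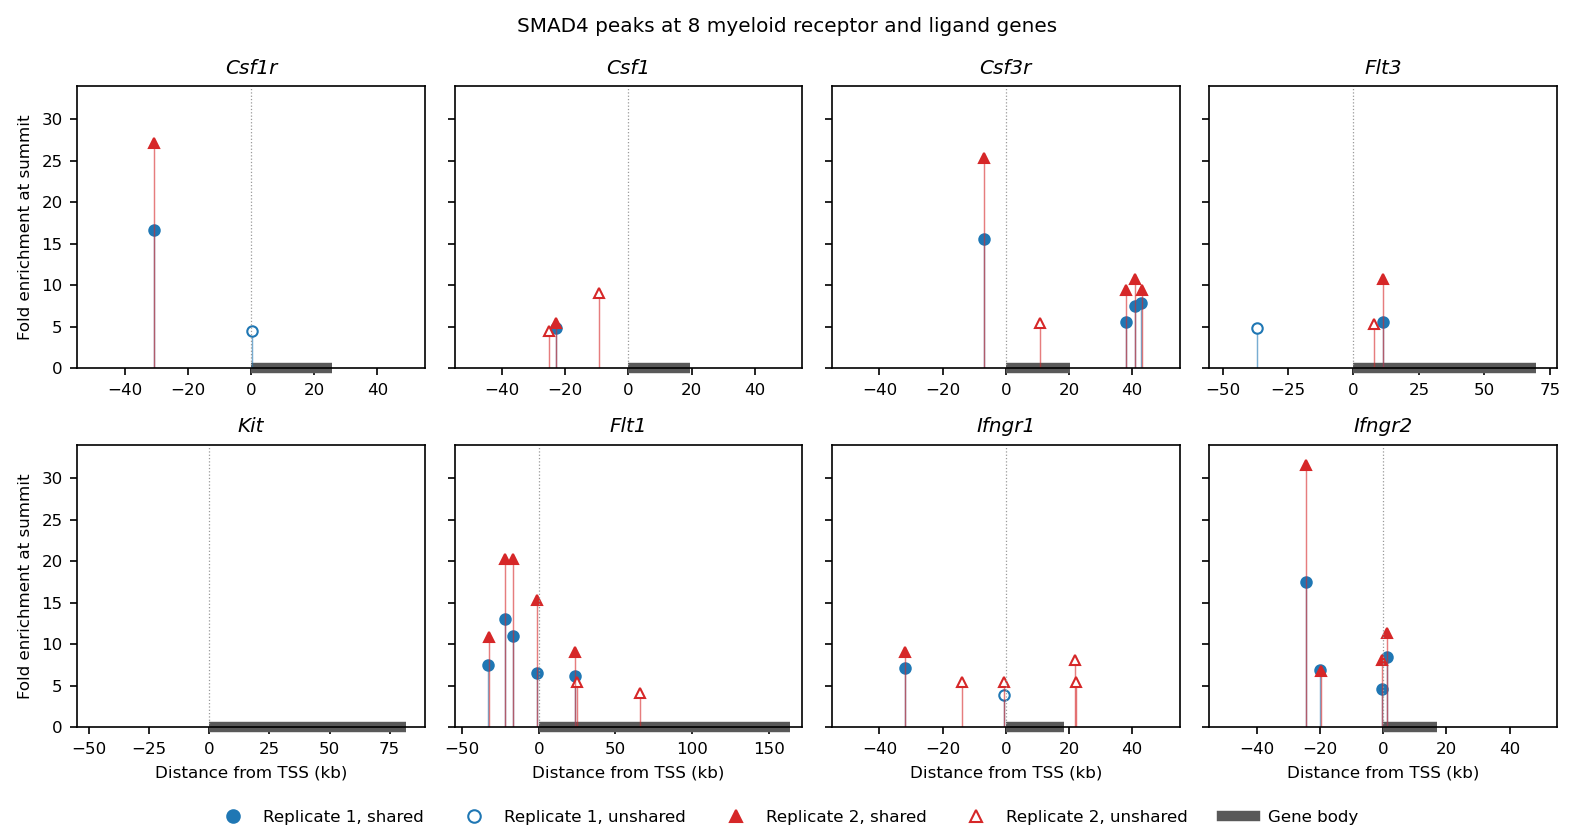
SMAD4 peaks at the 8 genes by distance of the summit from the TSS (kb, negative upstream) and fold enrichment at the summit. Circles are replicate 1 and triangles replicate 2, filled where the peak overlapped one of the other replicate and open where it did not, and the grey bar is the gene body. The filled pairs are highest upstream of Csf1r, Csf3r and Ifngr2, Flt1 has 5 pairs, and the Kit panel is empty.

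Assignment of a region to a gene by distance does not say which gene it serves, so the nearest TSS was recorded for each. The member's own TSS was the nearest for 10 of the 17 regions (58.8%), beside 45.5% of all pairs of a protein-coding gene and a shared region. These 10 regions lay at 5 of the 8 genes, namely Csf1, Csf3r, Flt1, Ifngr1 and Ifngr2, and 20.0% of protein-coding genes had such a region. The remaining 7 were nearest to Pdgfrb (at Csf1r), Oscp1 (3 at Csf3r), the RNA gene Gm26597 (at Flt3) and the microRNA gene Mir6367 (2 at Ifngr2). Among protein-coding genes alone, Flt3 and Ifngr2 had the nearest TSS to their regions, which raised the count to 13 regions at 6 genes. When predicted RefSeq transcripts were added, 3 of the Flt1 regions became nearest to Gm35541 and the upstream Csf3r region to Gm32908, which lowered it to 6 regions at 4 genes.

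Binding at Csf1r, the M-CSF receptor, was strong but lay outside the gene. Csf1r occupies chr18:61105572-61131139 on the plus strand. The single shared region was at chr18:61074482-61075148, 30712 bp upstream of the TSS and inside intron 14 of Pdgfrb, the neighbouring gene for PDGF receptor β, whose TSS was 29710 bp away. It had 50 fragments at the summit in replicate 1 and 59 in replicate 2, with fold enrichments of 16.6 and 27.1 (q = 2.93e-47 and 1.39e-73). Its smaller fold stood at percentile 93.0 of all 10964 shared regions, and none of the 11 strings was found within 100 bp of its mean summit. Within the Csf1r body, which is known for an intronic enhancer called FIRE, replicate 2 had no peak. Replicate 1 had 1 peak, in intron 1 at 144 bp from the TSS, with 14 fragments and a fold of 4.47 (q = 3.57e-05). Its control level of 2.35 fragments was above the most frequent level of that replicate.

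At Csf1, which encodes the ligand M-CSF and lies at chr3:107741048-107760469 on the minus strand, binding was weak. The shared region, chr3:107783250-107783556, was intergenic and 22926 bp upstream, with 14 fragments in replicate 1 and 11 in replicate 2 and folds of 4.87 and 5.41. The peaks of the 2 replicates overlapped by 15 bp only and their summits were 140 bp apart, so the region was lost when 50% of both peaks had to overlap. The smaller fold was at percentile 18.4 of all shared regions. The higher peak at Csf1 was one that replicate 2 alone held, 9464 bp upstream, with 19 fragments and a fold of 9.02. That summit was at percentile 96.3 of the unshared peaks of replicate 2, which had a median of 11 fragments.

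Flt1, the VEGF receptor 1 gene, had the most regions. It lies at chr5:147561604-147726011 on the minus strand, and 4 of its 5 shared regions were intergenic and upstream of the TSS. The region 22184 bp upstream had 39 fragments in replicate 1 and 44 in replicate 2, with folds of 13.0 and 20.3. The region 16744 bp upstream had 33 and 44 fragments and folds of 11.0 and 20.3. Both were 872 bp wide, at percentile 93.6 of the width of shared regions, where the median was 440 bp. The region farthest upstream, at 32972 bp, had folds of 7.47 and 10.9, with summits 331 bp apart in the 2 replicates. The one closest to the TSS, at 1073 bp, differed most between the replicates, with 19 fragments in replicate 1 and 33 in replicate 2 and folds of 6.5 and 15.3. The fifth region lay in intron 1, 23307 bp downstream, with the summit at the same base in both replicates and folds of 6.17 and 9.02.

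The other receptor tyrosine kinase genes, Flt3 and Kit, had at most 1 shared region. Flt3, at chr5:147330741-147400489 on the minus strand, had 1 shared region in its intron 1, chr5:147388985-147389399, 11310 bp downstream of the TSS. It had 16 fragments in replicate 1 and 23 in replicate 2, with folds of 5.52 and 10.8 (q = 1.58e-07 and 1.69e-19). The region was at percentile 32.2 of all shared regions by the smaller fold. Among all peaks of its own list, its fold was at percentile 48.0 in replicate 1 and 75.1 in replicate 2. Kit, the stem cell factor receptor gene at chr5:75574987-75656722, had 0 peaks in either list. Its window of 132.0 kb was the second longest of the 8, after that of Flt1. A list of called peaks bounds this absence only by its smallest summits of 9 and 7 fragments.

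Csf3r, the G-CSF receptor gene at chr4:126024659-126044975 on the plus strand, had a strong upstream region and a downstream group in a neighbouring gene. The upstream region, chr4:126017414-126018412, was intergenic, 6850 bp from the TSS and 999 bp wide, at percentile 96.7 of width. It had 47 fragments in replicate 1 and 55 in replicate 2, with folds of 15.6 and 25.3 (q = 3.38e-43 and 5.9e-67), and its smaller fold was at percentile 91.7. The other 3 regions lay 38073, 40768 and 42934 bp downstream, all in intron 1 of Oscp1, and were nearest to the Oscp1 TSS. Their folds ran from 5.52 to 7.8 in replicate 1 and from 9.48 to 10.8 in replicate 2. Each of the 4 regions held the CEBP string.

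The interferon-γ receptor genes differed in the number and strength of their regions. Ifngr2, the signalling chain gene at chr16:91547059-91564007 on the plus strand, had the region with the highest fold in both replicates among the 8 genes, although its interval overlapped those of Csf1r and Csf3r. The region, chr16:91522004-91523343, was intergenic and 24378 bp upstream. It had 53 fragments in replicate 1 and 69 in replicate 2, with folds of 17.5 and 31.6 (q = 2.14e-51 and 1.17e-90). It was 1340 bp wide, at percentile 99.3 of width and 94.1 of the smaller fold. The Mir6367 TSS was nearer to it, at 4863 bp. Another region lay 19826 bp upstream of Ifngr2, 311 bp from the Mir6367 TSS and near the transcript end of Mir6367. It had 20 fragments in replicate 1 and 14 in replicate 2. Its folds of 6.82 and 6.77 made it the only one of the 17 whose fold was not higher in replicate 2.

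Binding at Ifngr2 also flanked the TSS. The promoter region was 396 bp upstream, with 13 fragments in replicate 1 and 17 in replicate 2 and folds of 4.55 and 8.12. A region in intron 1, 1082 bp downstream, had 25 and 24 fragments and folds of 8.45 and 11.3. Ifngr1, the ligand-binding chain gene at chr10:19591949-19610229 on the plus strand, had 1 shared region. It was intergenic, at chr10:19559667-19560244 and 32043 bp upstream, with 21 fragments in replicate 1 and 19 in replicate 2 and folds of 7.15 and 9.02. At the Ifngr1 promoter each replicate had a peak of 11 fragments, 549 bp upstream in replicate 1 and 624 bp upstream in replicate 2. These peaks were 22 bp apart and so were not counted as shared, although their summits, 75 bp apart, were closer than those of the shared Csf1 region.

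**Figure D2:**
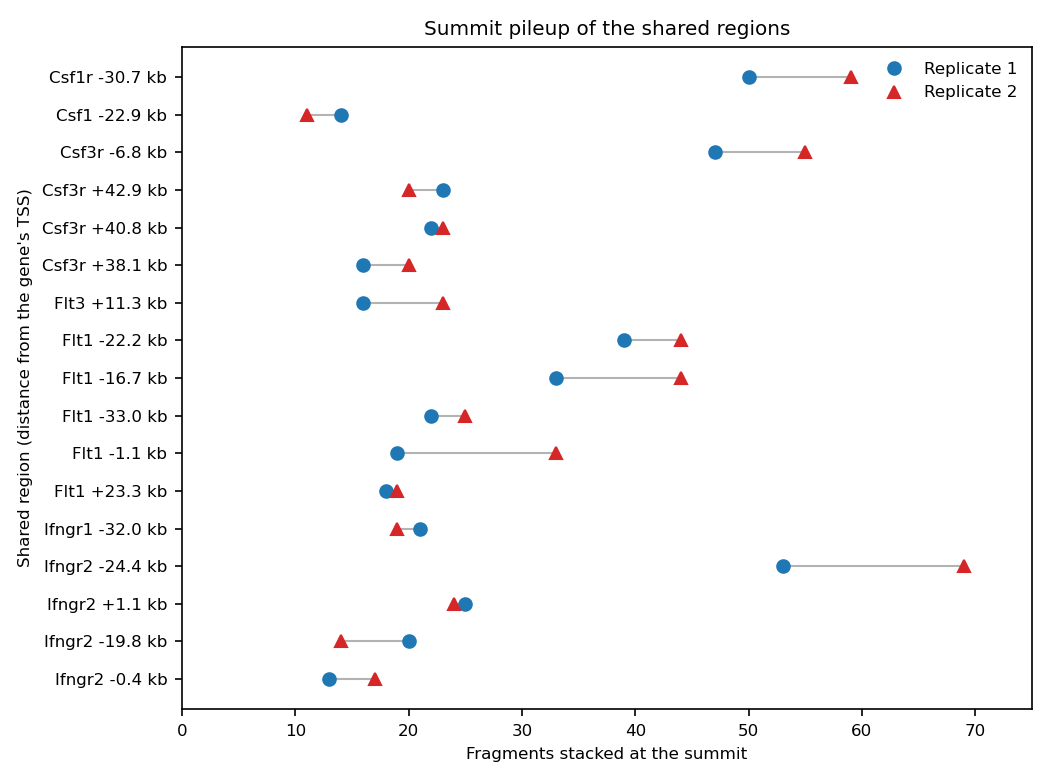
Fragments stacked at the summit of each of the 17 shared regions in replicate 1 (circles) and replicate 2 (triangles), with the distance from the TSS of the gene in kb (minus, upstream). The regions upstream of Csf1r, Csf3r and Ifngr2 have 47 or more fragments in both replicates, and the Csf1 region 14 and 11.

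The order of the regions was alike at the top in both replicates. The regions upstream of Ifngr2, Csf1r and Csf3r had 53, 50 and 47 fragments in replicate 1, with exact Poisson 95% intervals of 39.7 to 69.3, 37.1 to 65.9 and 34.5 to 62.5. In replicate 2 they had 69, 59 and 55 fragments, with intervals of 53.7 to 87.3, 44.9 to 76.1 and 41.4 to 71.6. These intervals cover counting error only and overlapped, so the 3 regions could not be ordered at this depth. All of them lay above the interval of the Csf1 region, which was 7.65 to 23.5 in replicate 1 and 5.49 to 19.7 in replicate 2. The upstream Flt1 regions at 22184 and 16744 bp came next, and their intervals, 27.7 to 53.3 and 22.7 to 46.3 in replicate 1, overlapped that of Csf3r as well.

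Fold enrichment was higher in replicate 2 for 16 of the 17 regions, and the same was true of 87.2% of all 10964 shared regions. With the control level left out, the number of stacked fragments was higher in replicate 1 for 5 of the 17, beside 46.4% of all. The median of the smaller fold was 7.47 for the 17 regions and 6.5 for all shared regions. The median width was 436 bp beside 440 bp, and the median distance between the summits of the replicates was 33 bp beside 49 bp. By position, 8 of the 17 regions were intergenic, 7 lay in introns, 1 in a promoter, 1 near a transcript end and 0 in exons. Over all shared regions 40.5% were intergenic, 49.3% in introns and 6.42% in promoters. The distance from the member TSS ran from 396 to 42934 bp with a median of 22926 bp, and 11 of the 17 were upstream.

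**Figure D3:**
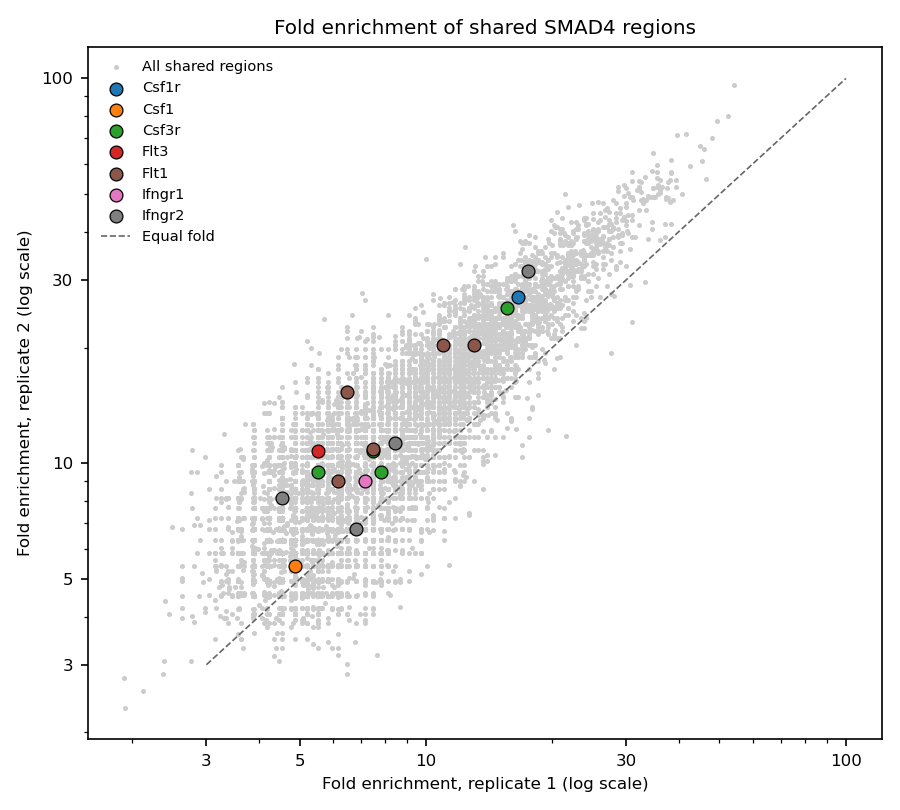
Fold enrichment of the 10964 shared regions in replicate 1 and replicate 2 on log axes (grey), with the 17 regions at the 8 genes in colour and a dashed line of equal fold. All coloured points but 1, an Ifngr2 region with 6.82 and 6.77, lie above the line, and the regions of Ifngr2, Csf1r and Csf3r with folds over 15 in replicate 1 are at the upper right.

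The peaks found in 1 replicate had lower medians than the shared ones, with overlapping ranges. The 3 in replicate 1 had 11 to 14 fragments, beside 13 to 53 for the 17 shared ones (median 22). The 10 in replicate 2 had 8 to 19 fragments with a median of 11.5, beside 11 to 69 for the shared ones (median 23). Of these, the Csf1 peak 9464 bp upstream and an Flt3 peak, with 19 fragments each, and an Ifngr1 peak with 17 were above the median of 14 of all peaks of that replicate. Ifngr1 had 4 of them in replicate 2, of which the pair 21748 and 22105 bp downstream, with 17 and 11 fragments, lay nearest to the TSS of Il22ra2, the gene for a soluble receptor of IL-22. Flt3 had one in each replicate, at different places. That of replicate 2, in intron 1 at 7653 bp from the TSS, had 19 fragments over a raised control level of 2.78 and a fold of 5.29. That of replicate 1 was in intron 1 of Pan3, 36966 bp upstream, with 14 fragments. Csf3r had 1 in replicate 2, in its intron 7, with 11 fragments, and Flt1 had 2 in replicate 2, with 8 and 12 fragments.

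The CEBP string was the most frequent in the 17 windows. The strings differ in their number of fixed bases, so each is to be read beside its share of all regions and not against the others. It was present in 12 of them (70.6%), beside 40.9% of 10963 shared regions whose bases were all determined. The 12 were the 4 regions of Csf3r, 4 of the 5 of Flt1, 3 of the 4 of Ifngr2 and that of Flt3. The windows of Csf1r, Csf1 and Ifngr1 held none. Within 50 bp of the mean summit the CEBP string was present in 7 of the 17 (41.2%), beside 28.0% of all. Thus 5 of the 12 windows held it farther out only. The window of the Flt1 region 32972 bp upstream held neither of its summits, which were 331 bp apart. Its CEBP and STAT matches, counted here, were therefore near the mean summit only and more than 100 bp from the summit of either replicate. The regions of a gene share their neighbourhood and are not independent of each other. The RUNX string was present in 3 windows (10.8% of all regions), the NR element in 3 (15.4%), the SMAD string in 3 (11.2%) and the STAT string in 2 (8.06%). The AP-1 string was present in 1 window (12.3% of all), the PU.1 string in 1 (8.0%) and the E-box in 1 (3.65%). The ELF5-type ETS string (5.62% of all), the SMAD palindrome (0.465%) and the GC-rich SMAD string (1.01%) were in 0 windows. Mean GC content was 47.7% ± 5.38 (SD, n = 17 windows) beside 43.7% ± 6.49 over all, and the lowest, 34.3%, was that of Ifngr1.

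**Figure D4:**
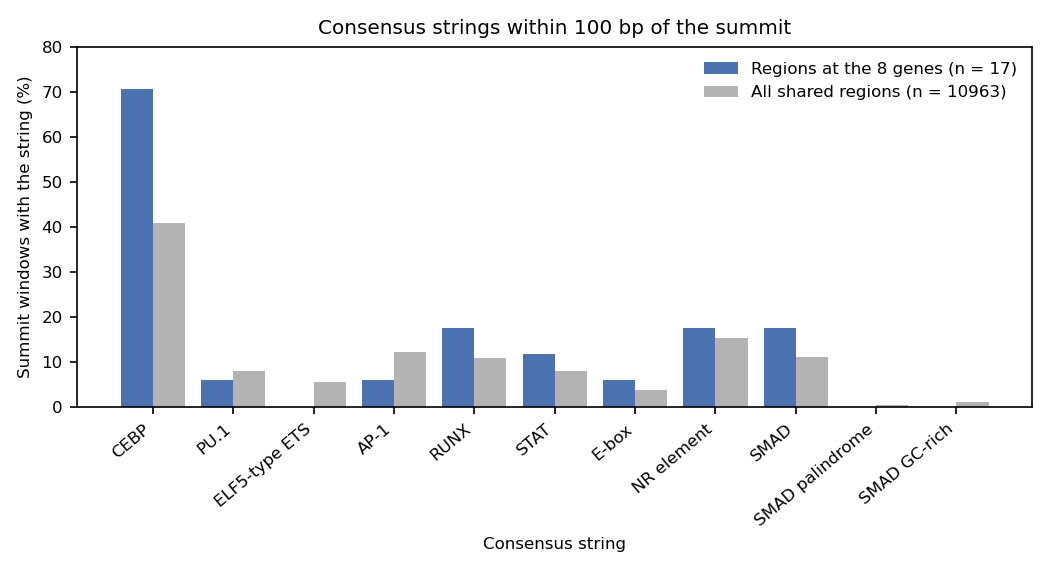
Percent of windows, 100 bp each side of the mean summit, that hold each consensus string, for the 17 shared regions at the 8 genes (blue) and all 10963 shared regions (grey). The CEBP bars are the highest, at 70.6% and 40.9%, and each further blue bar stands for 3 windows or fewer.

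Other genes of these pathways were counted by the same rule. A shared region was present at 19 of 30, and at 14 its own TSS was the nearest, to be read beside 39.1% and 20.0% of protein-coding genes. Of the ligand genes Il34, Flt3l, Kitl, Csf3, Ifng, Vegfa, Vegfb and Pgf, 2 had a shared region (Vegfa and Pgf), in 0 cases nearest to their own TSS. Of 7 related receptors 4 had one, and at Pdgfrb, Csf2ra and Csf2rb it was nearest to their own TSS. The Pdgfrb region is the one given above under Csf1r. Csf2ra and Csf2rb, the chains of the GM-CSF receptor, had folds of 5.2 and 5.85 in replicate 1 and 5.87 and 7.22 in replicate 2 at their strongest such region.

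Genes of signal transducers had a shared region in 8 of 9 cases and of inhibitors (Socs1 and Socs3) in 1 of 2. The share over all protein-coding genes was 39.1%. Among transducer regions nearest to their own gene's TSS, the one with the highest smaller fold was 1174 bp into Stat3, the main transducer of the G-CSF receptor, with folds of 19.5 in replicate 1 and 28.0 in replicate 2. Cbl, the ubiquitin ligase that sends the M-CSF receptor to degradation, had a region with folds of 17.9 and 33.0, over a control level raised above the usual one, since its summit held 129 and 154 fragments. Grb2, an adaptor of receptor tyrosine kinases, had folds of 7.01 and 22.1 with 39 and 48 fragments at its summit, since the control level was raised in replicate 1 only. Jak2 (7.8 and 9.02), the phosphatase gene Inpp5d (6.5 and 7.22) and the adaptor gene Tyrobp (5.85 and 6.32) had folds within the range of 5.85 to 9.02, beside a median smaller fold of 6.5 for all shared regions.

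All 4 genes listed as regulators of Csf1r transcription had a shared region nearest to their own TSS, beside 20.0% of protein-coding genes. Runx1 had 14 shared regions, a number that depends on gene length, and 11 of them were nearest to its own TSS. The strongest of these 11 by the smaller fold had folds of 20.8 and 37.5. The region nearest to the Irf8 TSS was 2567 bp inside the gene, with folds of 23.1 and 41.5. Spi1, which encodes PU.1, had 5 regions, the strongest by the smaller fold with 7.15 and 7.22, and Cebpa had 1, 29533 bp upstream, with folds of 6.17 and 6.77. Runx1 and Irf8 thus had higher folds in both replicates than any region at the 8 genes, while those given for Spi1 and Cebpa were below the region upstream of Csf1r.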

How the data were processed

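Deposited peak lists of 2 SMAD4 libraries were used, and the 2 input libraries entered only as the control behind each peak. Replicate numbers were given in accession order. Per the study's methods, the authors used Cutadapt for trimming and Bowtie2 for alignment to mm10, removed duplicates marked by PICARD, filtered with samtools and called peaks per library with MACS3 against input at a q-value limit of 0.05. Each deposited peak carries a fold ratio, a −log10 p-value and a −log10 q-value at the summit, the summit offset, and a score that was not used here. The deposited q-values and folds were used to describe and rank peaks.

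Summit fragment numbers were solved from fold and −log10 p and gave back the deposited −log10 p within 0.00054. Gene models were 45657 curated RefSeq transcripts of GRCm38.p6. Promoters ran from 1 kb upstream to 100 bp downstream of a TSS. A summit from 100 bp before to 1 kb after the end of a transcript was counted as near a transcript end. Where peaks of the replicates had 1 bp or more in common, they were joined into a shared region. Strings were searched on both strands within 100 bp of the mean summit, a palindromic match counting once. Python 3.11.15, numpy 2.4.6, scipy 1.17.1, pysam 0.24.0 and matplotlib 3.10.9 were used, and the scripts were tested on simulated data.

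All 8 genes were named. Of 30 pathway genes, those with a shared region nearest to their own TSS were named, except 1 that is not reported here, further genes where theirs was the TSS nearest to a peak, and Vegfa, Pgf and the inhibitors as members of small counts. The strongest region of a gene was that with the highest smaller fold. The genes, lists and strings were chosen with earlier results of these data known. Read totals were not used here. With 2 libraries of 1 condition, no test between groups was made.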

Additional observations from a re-analysis of the deposited data

How the results depend on the processing

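The 10 results were recomputed under other settings, and 56 of 64 values stayed within 1.5 times the reported one. With a window of 10 kb around the TSS there were 8 and 12 peaks in replicates 1 and 2, 6 shared regions, 5 of them nearest to the member TSS, and 4 genes with a shared region, 3 of them with one nearest to their own TSS, since most regions lay farther away. Predicted transcripts left 6 regions nearest to the member TSS. With 50 bp each side of the mean summit, 7 windows held the CEBP string, an alternative chosen after seeing the data. A minimum fold of 5, a 50% overlap and summits within 100 bp each removed the Csf1 region and left 6 genes with a shared region. The minimum fold also removed the Ifngr2 promoter region, which left 3 regions at Ifngr2. The overlap and summit rules each left 4 regions at Flt1, and the summit rule gave 2 at Ifngr1. Counting peaks up to 100 bp apart as shared, also chosen after seeing the data, gave 18 regions by adding the Ifngr1 promoter. A window of 100 kb gave 24 regions, and none at Kit. From either replicate alone, 7 genes had a peak, 5 to 6 of them had one nearest to their own TSS, and 23 to 24 of the 30 pathway genes had a peak. No paired analysis was possible because the results come from no test between groups. Low summits, of 11 to 14 fragments for the Csf1 region, limit what the lists can show of weak binding.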
